A study of Caenorhabditis elegans with 4 samples.

Results

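The 10 genes described here encode the dosage compensation machinery of Caenorhabditis elegans, and they were chosen by name (sdc-1, sdc-2, sdc-3, dpy-21, dpy-26, dpy-27, dpy-28, dpy-30, mix-1 and capg-1). All 10 were found among the 18638 features of the authors' deposited table, which holds 18468 genes and 170 repeat elements. Poly(A) RNA was sequenced from gravid adult worms in 4 libraries, 2 of N2, the standard laboratory wild type, and 2 of YY1449, a strain mutant for rde-3, with no treatment named. The gene rde-3, listed as mut-2, encodes a nucleotidyltransferase of RNA interference and transposon silencing, which tags target RNAs with stretches of alternating U and G. The labels name no allele, and each genotype was 1 strain, so an effect of rde-3 and other differences between the strains cannot be told apart. Adult hermaphrodites carry germ cells, oocytes and embryos beside somatic tissues. In whole animals, fewer cells of a type and less RNA per cell cannot be told apart.

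In C. elegans, XX hermaphrodites lower transcription from both of their X chromosomes so that X-linked output matches that of XO males. A condensin complex specialised for this task is loaded onto the hermaphrodite X chromosomes by a set of recruiting proteins, and its members also include a histone demethylase. Most of its condensin subunits are shared with the complexes that compact all chromosomes in mitosis and meiosis. Much of this machinery, though not SDC-2, is supplied to the embryo through the oocyte, and loss of several of them gives the dumpy body shape for which the dpy genes are named.

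RNA of 7 of the 10 genes rose in the rde-3 mutants and that of none fell, at an adjusted p under 0.05 in the authors' deposited table. Over all 18638 features, 9.42% were called higher and 8.04% were called lower. The members' mean normalized counts ran from 261 (sdc-2) to 2502 (mix-1), and among the 4580 genes in that range 18.3% were called higher and 15.1% lower. The median deposited log2 fold change was 0.46 over the 10 genes, 0.08 over genes in that range and -0.02 over all features. Long and abundant genes were called higher more often. Of the 687 genes in that range with exons of 3 kb or more, as in every member but dpy-30, 33.5% were called higher (median 0.26). Of autosomal genes with a mean of at least 1000, 33.2% were called higher (median 0.20). The rises were small, from 1.28-fold for capg-1 to 2.02-fold for sdc-3. All 5 condensin subunits rose. The 3 genes that did not pass were the recruiters sdc-1 and sdc-2 and the shared subunit dpy-30.

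Reads in each library, which the deposited table does not list, were recovered from it. Each deposited mean is an average, over the 4 libraries, of whole reads divided by a size factor. Solutions in whole reads were searched near the group means that the deposited log2 fold change implies, and each of the 10 members had 1. Recomputed from those reads, the members' log2 fold changes matched the deposited ones to within 2.12e-07. Since the search used the deposited changes, this match is not a wholly separate check. Values below are reads divided by the size factor of the library (1.42 and 0.963 in N2, 1.06 and 0.707 in YY1449), given for the deeper library of each group first. Which library is replicate 1 is not known, and the assignment of libraries to strains rests on reading positive log2 values as higher in the mutants. RNA of mut-2 did not check that reading, at 726 and 805 normalized counts in N2 and 846 and 745 in YY1449 (deposited log2 0.06 ± 0.16, adjusted p = 0.905). Errors after ± are the deposited standard errors unless another test is named. For a difference between genes, the deposited errors were combined as independent. Adjusted p-values are the deposited ones, over all 18638 features, unless another test or the removal of a trend in exon length is named.

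Of the recruiters, sdc-3 rose and the X-linked sdc-1 and sdc-2 did not pass. SDC-2 starts the loading of the complex onto X and is made in hermaphrodite embryos, and SDC-3 and SDC-1, both zinc finger proteins, act with it. sdc-3 (chromosome V, 15039148 to 15048207, build WBcel235) had 533 and 558 normalized counts in N2 and 1231 and 963 in YY1449. The mutant libraries lay well above the wild-type ones, although they differed 1.28-fold from each other. Its deposited log2 fold change was 1.01 ± 0.17 (adjusted p = 9.92e-08), the largest rise among the 10 genes.

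sdc-1 (chromosome X, 16275763 to 16282534) had 408 and 406 normalized counts in N2 and 534 and 546 in YY1449. Its groups did not overlap and its replicates lay close together, yet the deposited test did not call it (log2 0.41 ± 0.18, adjusted p = 0.104). The limma test with voom weights on the recovered reads did call it (log2 0.41 ± 0.15, adjusted p = 0.0309), but not with any 1 library left out (limma adjusted p from 0.0546 to 0.241). sdc-2 (chromosome X, 11522707 to 11533450), the recruiter on which the others depend, was the least abundant member, with 264 and 203 normalized counts in N2 and 256 and 321 in YY1449. Its groups overlapped, and the deposited difference was within its error (log2 0.29 ± 0.24, adjusted p = 0.545). The 95% interval of its log2 change ran from -0.18 to 0.77, a range that includes the deposited changes of all 5 condensin subunits, so that a difference from them was not detectable at this depth. Exons of the antisense RNA gene anr-16 overlap those of sdc-2 over 1181 bases, and without strand their reads cannot be told apart. Listed separately, anr-16 had a deposited mean of 23.9 normalized counts.

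Reads of sdc-3 per read of sdc-2 numbered 2.02 and 2.74 in the N2 libraries and 4.81 and 3 in the YY1449 libraries. This ratio within a library does not depend on scaling, and both mutant values exceeded both wild-type values. Against sdc-1 the same ratio was 1.31 and 1.37 in N2 and 2.30 and 1.76 in YY1449. The deposited log2 changes of sdc-3 and sdc-2 differed by 0.72 ± 0.30 (95% interval 0.14 to 1.298), and those of sdc-3 and sdc-1 by 0.61 ± 0.25 (0.12 to 1.09), with the deposited errors taken as independent. These pairs were chosen after their values were seen.

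**Figure D1:**
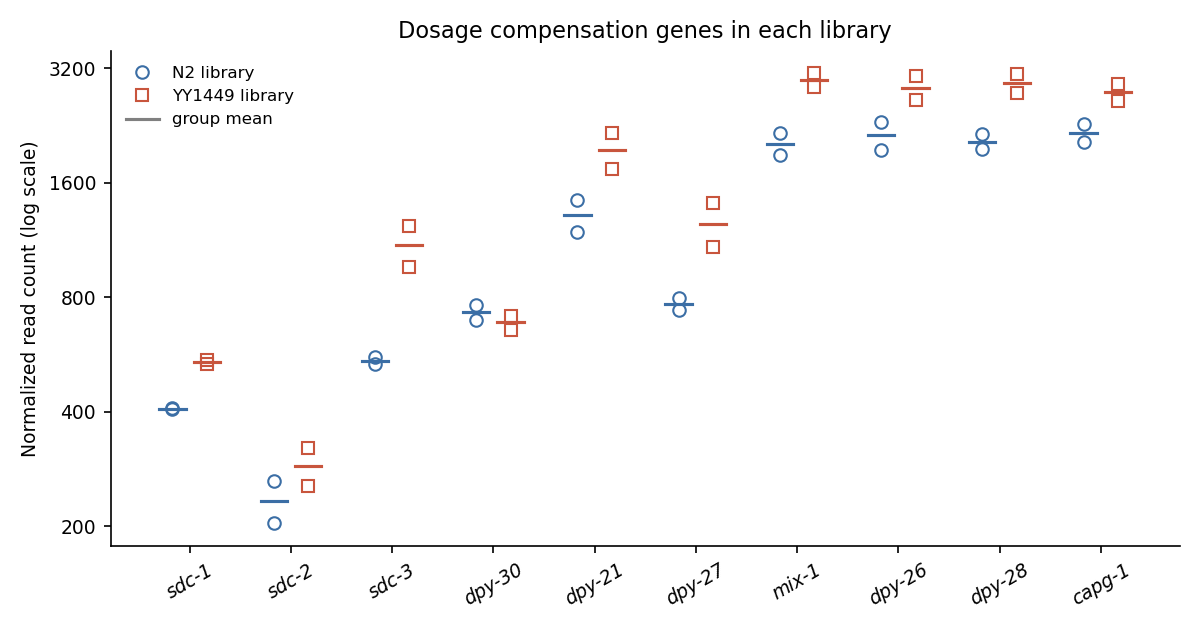
Normalized read counts (log scale) of the 10 dosage compensation genes in 2 N2 libraries (circles) and 2 YY1449 libraries (squares), with group means as lines. Both YY1449 libraries lie above both N2 libraries for 8 genes, and the groups overlap for sdc-2 and dpy-30.

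The SMC subunits, the ATPases that form the arms of the condensin ring, both rose. dpy-27 (chromosome III, 3813018 to 3819679) encodes the SMC4-type subunit used only by the dosage compensation complex. It had 740.3 and 798 normalized counts in N2 and 1411 and 1086 in YY1449 (deposited log2 0.70 ± 0.17, adjusted p = 0.000354). Both mutant libraries were above both wild-type libraries, with the deeper mutant library the highest. mix-1 (chromosome II, 10824246 to 10841424) encodes the SMC2-type partner found in every condensin of the worm, and it had 1894 and 2155 normalized counts in N2 and 3103 and 2857 in YY1449 (deposited log2 0.56 ± 0.13, adjusted p = 0.000302). The deposited changes of dpy-27 and mix-1 differed by log2 0.14 ± 0.21 (95% interval -0.27 to 0.56). Reads of dpy-27 per read of mix-1 were 0.391 and 0.370 in N2 and 0.455 and 0.380 in YY1449, and these values overlap.

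The non-SMC subunits, which close and regulate the ring and are shared with the mitotic and meiotic condensin I, had smaller deposited changes. The difference from the SMC subunits was not tested. Even the 95% intervals of the lowest and the highest condensin subunit, capg-1 (0.10 to 0.61) and dpy-27 (0.38 to 1.03), overlap. dpy-28 (chromosome III, 10763131 to 10777076), a HEAT repeat subunit of the CAP-D2 type, had 1957 and 2148 normalized counts in N2 and 3092 and 2752 in YY1449 (deposited log2 0.51 ± 0.13, adjusted p = 0.00114). dpy-26 (chromosome IV, 12445801 to 12451335), the kleisin that bridges the SMC heads, had 1953 and 2313 in N2 and 3046 and 2642 in YY1449 (deposited log2 0.42 ± 0.14, adjusted p = 0.0202). capg-1 (chromosome I, 7634492 to 7639785), a HEAT repeat subunit of the CAP-G type, had 2046 and 2283 in N2 and 2907 and 2622 in YY1449 (deposited log2 0.35 ± 0.13, adjusted p = 0.0400). In each of these genes the lower mutant library was above the higher wild-type library, by 1.28-fold for dpy-28, 1.142-fold for dpy-26 and 1.15-fold for capg-1. The 2 N2 libraries differed by 1.10-fold, 1.18-fold and 1.12-fold in the same order, so that for dpy-26 the gap between groups was smaller than that between replicates. dpy-26 shares 84 exon bases with C25G4.3 on the same strand, which fell by 0.78 ± 0.26 on the log2 scale in the authors' deposited table.

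Levels of the 4 shared subunits lay close together. Reads of dpy-28 per read of mix-1 were 1.03 and 0.997 in N2 and 0.996 and 0.963 in YY1449, and those of dpy-26 were 1.03 and 1.07 in N2 and 0.982 and 0.925 in YY1449. Reads of capg-1 per read of mix-1 were 1.08 and 1.06 in N2 and 0.937 and 0.918 in YY1449. Both mutant ratios were below both wild-type ratios for all 3 genes, though for dpy-28 the nearest values were almost equal. Per kilobase of exon, normalized counts averaged over the 4 libraries were 643 for capg-1, 614 for mix-1, 587 for dpy-26 and 533 for dpy-28. On that scale dpy-21 was at 288, dpy-27 at 190.3 and sdc-2 at 28.2. In every library the shared subunits stood above dpy-21, dpy-21 above dpy-27, dpy-27 above sdc-1 and sdc-3, and these above sdc-2. Among the shared subunits, capg-1 was above dpy-28 in all 4 libraries, and mix-1 and dpy-26 overlapped within both strains. The order of the other sdc genes changed with the strain. Per kilobase, sdc-1 had 105.9 and 105.3 normalized counts in N2 against 78.7 and 82.3 for sdc-3, and in YY1449 it had 138.5 and 141.6 against 181.7 and 142.2. The difference between them in the shallower mutant library was small.

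The histone demethylase gene rose and the shared chromatin subunit did not. dpy-21 (chromosome V, 17936282 to 17949193) encodes a jumonji protein that removes methyl groups from lysine 20 of histone H4 and so enriches the monomethylated form on X. It had 1187 and 1440.0 normalized counts in N2 and 2167 and 1738 in YY1449 (deposited log2 0.57 ± 0.16, adjusted p = 0.00287). Its replicates were spread by 1.213-fold in N2 and 1.247-fold in YY1449. The groups did not overlap, but the gap between them, 1.207-fold, was no larger than that between replicates. dpy-30 (chromosome V, 12191519 to 12192385) encodes a small protein that serves both dosage compensation and the methyltransferase complexes of histone H3 lysine 4. It had 696 and 764 normalized counts in N2 and 716 and 658 in YY1449, with overlapping groups (deposited log2 -0.09 ± 0.16, adjusted p = 0.864). At 1207 mean normalized counts per kilobase it had the highest level of the 10 genes, and its exons, 587 bases in all, were the shortest. The 95% interval of its log2 change was -0.40 to 0.23, and it lay 0.64 ± 0.21 below that of mix-1 (95% interval of the difference 0.24 to 1.05), a pair chosen after its values were seen. The exons of mix-1 are much longer, 4076 bases in all. With a trend in exon length removed, as described below, the log2 changes were 0.20 for dpy-30 and 0.33 for mix-1. That of dpy-21 was then 0.30 and no longer passed.

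**Figure D2:**
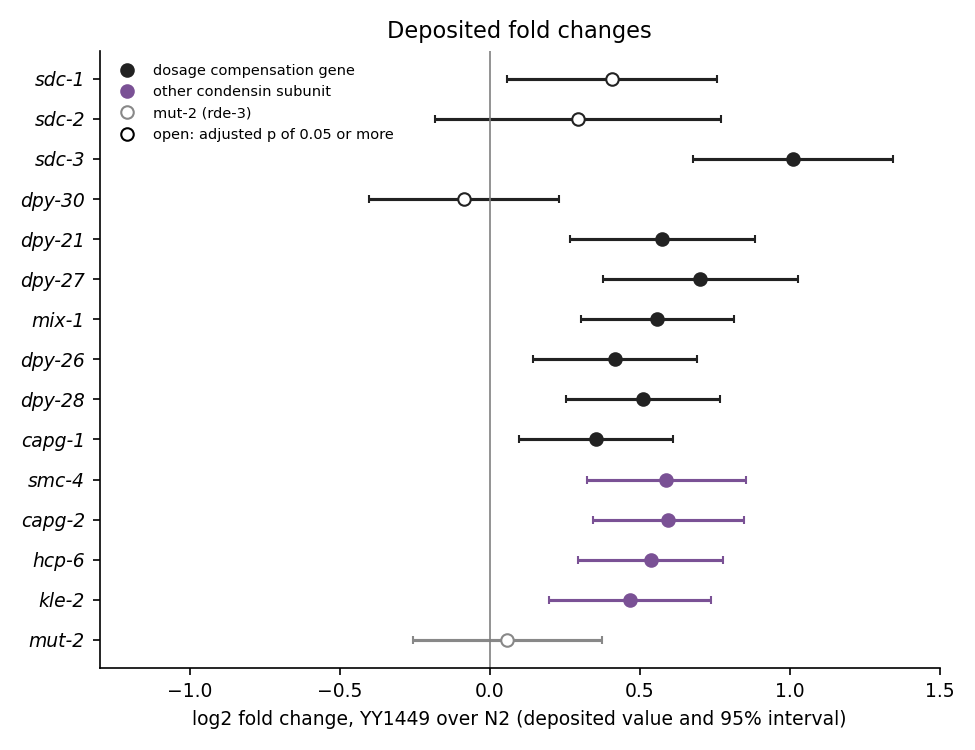
Deposited log2 fold changes (YY1449 over N2) with 95% intervals from the deposited standard errors for the 10 dosage compensation genes, the 4 other condensin subunits and mut-2. Filled points passed an adjusted p of 0.05, and the intervals of sdc-2, dpy-30 and mut-2 include 0.

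Summed over the 10 genes, normalized counts were 11678 and 13069 in N2 and 18463 and 16184 in YY1449. For 8 of the 10 genes both mutant libraries were above both wild-type libraries. That pattern was also common elsewhere, in 34.2% of the 12022 features with means of 10 to 6000 (34.5% had the opposite order) and in 41.9% of the 4580 genes in the members' range. In the limma test with voom weights on the recovered reads, 8 of the 10 rose and none fell, against 18.5% and 18.7% of those 12022 features. The deeper N2 library mattered: without it 2 of the 10 were called higher in that test (sdc-3 and dpy-27), as were 7.15% of all 12022 features. Without the shallower N2 library 6 members and 12% of features were called higher. Without the deeper YY1449 library these were 5 members and 15.2%, and without the shallower one 7 members and 19.6%. The sign of all 10 log2 changes stayed the same whichever of the 4 libraries was left out. When a t distribution (2 degrees of freedom) replaced the normal for the deposited statistics, 0 of the 10 and 0 of all 18638 features (0%) passed after adjustment. Unadjusted, 1 of the 10 (sdc-3) and 1137 features were then below 0.05, so this setting says nothing particular about the members.

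Fold change moved with exon length in this comparison. Among the genes in the members' range of means, 33.5% of the 687 with exons of 3 kb or more were called higher in the authors' deposited table, against 15.3% of the 3814 shorter ones. The deposited median log2 changes of these groups were 0.26 and 0.04. Every member but dpy-30 has exons of 3.83 kb to 9.25 kb. With a trend in length removed, 12.4% of the 11836 genes fitted and 16.1% of the 4501 of them in the members' range were called higher. Of the 10 members 2 passed, sdc-3 at log2 0.73 (adjusted p = 0.000254) and dpy-27 at log2 0.43 (adjusted p = 0.0402). mix-1 was then at log2 0.33 (adjusted p = 0.0531) and sdc-2 at 0.01 (adjusted p = 0.992). dpy-30 turned from -0.09 to 0.20 (adjusted p = 0.414). The part of length in the rises was not tested.

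**Figure D3:**
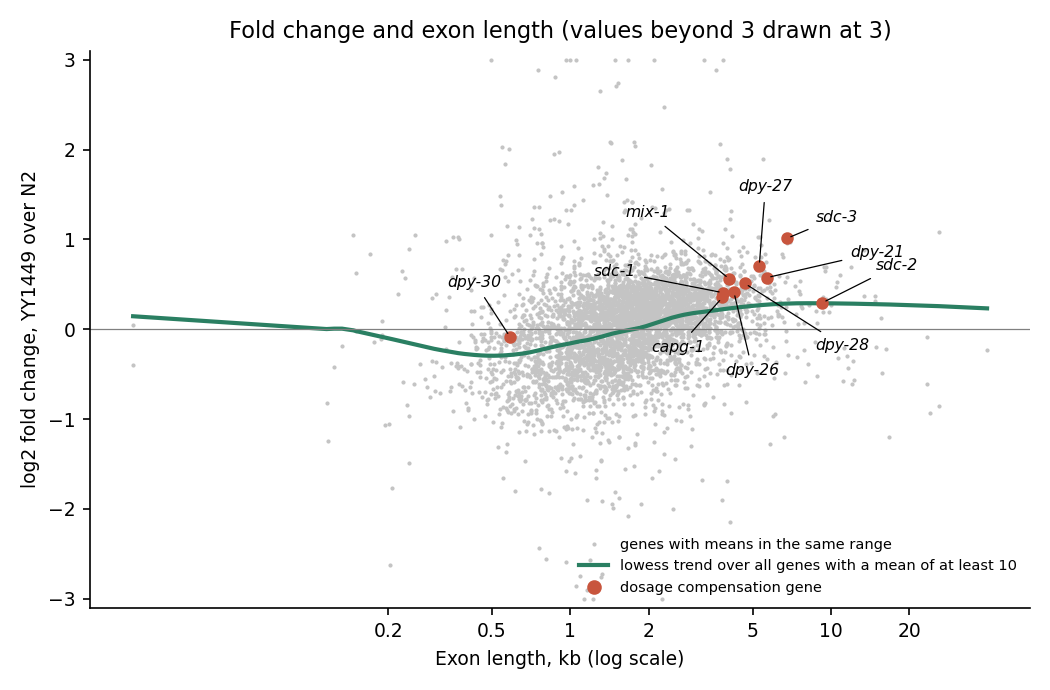
Deposited log2 fold change (YY1449 over N2) against exon length in kb (log scale) for genes with means in the members' range (grey), the lowess trend, and the 10 dosage compensation genes (red). All 10 members lie on or above the trend, which rises over most of the range of lengths, and sdc-3 lies farthest above it.

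Condensin subunits outside the dosage compensation complex rose as well. Of the 4 listed, all rose in the authors' deposited table, with a median log2 change of 0.56. smc-4 (chromosome III, 4587501 to 4593124), the SMC4-type subunit of condensin I and II and the paralog of dpy-27, had 3020 and 3472 normalized counts in N2 and 5308 and 4441 in YY1449 (deposited log2 0.59 ± 0.14, adjusted p = 0.000228). The deposited changes of dpy-27 and smc-4 differed by log2 0.11 ± 0.21 (95% interval -0.30 to 0.53). The condensin II subunits capg-2, hcp-6 and kle-2 had deposited log2 changes of 0.60 ± 0.13, 0.54 ± 0.12 and 0.47 ± 0.14. With the length trend removed, capg-2 was the one of these 4 that still passed (adjusted p = 0.0110). Of 13 genes of cohesin and of the SMC-5/SMC-6 complex, the other SMC complexes of the cell, 3 rose and none fell in the authors' deposited table. They were the cohesin loader gene pqn-85 (deposited log2 0.66 ± 0.13), smc-6 (0.53 ± 0.12) and the mitotic kleisin gene scc-1 (0.58 ± 0.16). The median of the 13 was 0.24. With the length trend removed, smc-6 and scc-1 still passed, pqn-85 was not fitted, and another gene of this list was called lower.

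Upstream of the complex, the count of X chromosomes is read against that of autosomes by the switch gene xol-1, which must be off in hermaphrodites. xol-1 had 23.3 and 27 normalized counts in N2 and 52.1 and 60.8 in YY1449. The mutant libraries were above the wild-type ones, but the deposited test did not call it (log2 1.17 ± 0.51, adjusted p = 0.106). Of the X-linked repressors of xol-1, the nuclear hormone receptor gene sex-1 rose (deposited log2 0.55 ± 0.20, adjusted p = 0.0356). The homeobox gene ceh-39 and the RNA-binding protein gene fox-1 did not pass, at deposited log2 changes of 0.47 ± 0.20 and 0.41 ± 0.24. Of the autosomal activators, sea-2, a zinc finger gene, had 656 and 619.8 normalized counts in N2 and 1258 and 1019.6 in YY1449 (deposited log2 0.84 ± 0.16, adjusted p = 6.95e-06), and the T-box gene sea-1 did not pass (0.18 ± 0.32). In all, 2 of the 6 measured sex signal genes rose and none fell. sex-2, the other gene of the list, had no value.

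Downstream, the SDC proteins also repress her-1, the secreted signal of male development. her-1 was near the floor of detection, with 7.76 and 10.4 normalized counts in N2 and 11.4 and 19.8 in YY1449 (deposited log2 0.78 ± 0.92, adjusted p = 0.737). Of 10 sex determination genes 2 rose and 1 fell in the authors' deposited table. Those that rose were tra-2, the membrane receptor for HER-1 (deposited log2 0.57 ± 0.14), and fog-1, an RNA-binding protein gene of the sperm fate (0.75 ± 0.28). tra-3, a calpain protease gene, fell by 0.51 ± 0.17 on the log2 scale in the same table. The list's median was 0.28. With the length trend removed, tra-2 and fog-1 no longer passed and tra-3 still did.

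Enzymes that act on the same histone marks moved in both directions. set-1, which encodes the methyltransferase that makes the monomethylated form of histone H4 lysine 20, fell, from 2645 and 2891 normalized counts in N2 to 1933 and 1786 in YY1449 (deposited log2 -0.57 ± 0.13, adjusted p = 0.000146). set-4, which encodes the enzyme that adds further methyl groups and so acts against dpy-21, did not pass (deposited log2 0.13 ± 0.15, adjusted p = 0.730). Of 8 genes of the SET1 and MLL complexes that share DPY-30, 4 rose and none fell in the authors' deposited table, with a median log2 change of 0.38. The methyltransferase genes set-16 and set-2 were at deposited log2 changes of 0.89 ± 0.12 and 0.63 ± 0.14, and pis-1 and ash-2 at 0.52 ± 0.17 and 0.41 ± 0.14. With the length trend removed, set-16 and set-2 still passed and pis-1 and ash-2 did not. The lowest of the 8 was wdr-5.1, at a deposited log2 change of 0.07 ± 0.15 beside -0.09 ± 0.16 for dpy-30.

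Genes that position or silence chromatin on X showed rises in part. cec-4, which encodes the chromodomain anchor that holds methylated chromatin at the nuclear periphery, had 251 and 304 normalized counts in N2 and 434 and 409 in YY1449 (deposited log2 0.61 ± 0.21, adjusted p = 0.0232). The histone H3 lysine 9 methyltransferase genes met-2 and set-25 did not pass, at deposited log2 changes of 0.29 ± 0.12 and 0.35 ± 0.16. Of 7 genes linked to chromatin repression and X silencing in the germline, 3 rose and none fell in the authors' deposited table. They were met-1 (deposited log2 0.81 ± 0.13) and mes-4 (0.50 ± 0.15), both histone H3 lysine 36 methyltransferase genes, and mes-2 (0.60 ± 0.15), a Polycomb methyltransferase gene. Several subunits of the complex are modified by SUMO, and of 6 SUMO pathway genes the protease gene ulp-1 rose (deposited log2 0.46 ± 0.13) and aos-1, of the activating enzyme, fell by 0.52 ± 0.16 on the log2 scale. With the length trend removed, met-1, mes-2, cec-4 and aos-1 still passed, and mes-4 and ulp-1 did not.

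**Figure D4:**
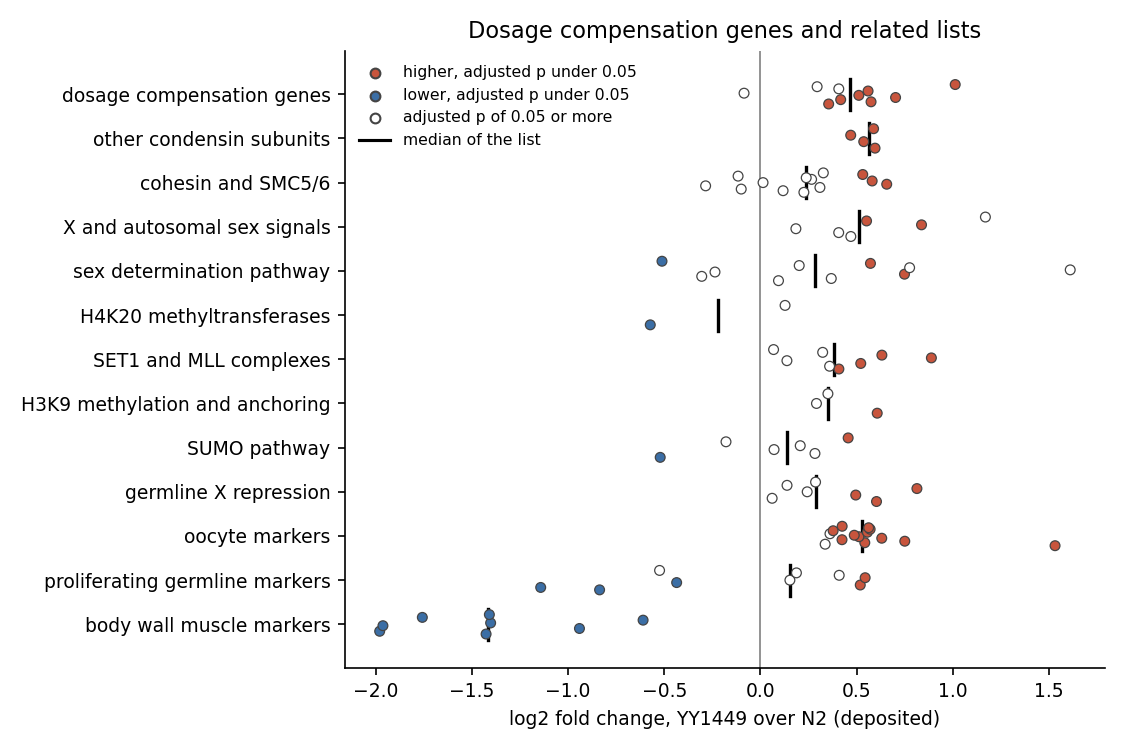
Deposited log2 fold changes (YY1449 over N2) of the dosage compensation genes and of related gene lists, 1 point per gene, red where higher and blue where lower at an adjusted p under 0.05. With no length trend removed, the medians of the dosage compensation genes (0.46), other condensin subunits (0.56) and oocyte markers (0.53) lie close together. Body wall muscle markers lie at -1.42.

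Markers of cell types moved with the strain. Among 14 oocyte markers, 12 had higher and none had lower RNA in YY1449 in the authors' deposited table. The deposited log2 changes of these markers had a median of 0.53, beside 0.46 for the dosage compensation genes. With the length trend removed, 12 of the 14 markers and 2 of the 10 dosage compensation genes were called higher. Of all genes fitted, 12.4% were. The 4 oocyte markers with recovered reads summed to 9491 and 10618 normalized counts in N2 and 16573 and 13571 in YY1449. The smallest adjusted p-values of this list belonged to the caveolin gene cav-1 (deposited log2 1.53 ± 0.21) and the eggshell gene cpg-2 (0.75 ± 0.12). Of 9 markers of the proliferating and meiotic germline, 2 were higher and 3 were lower, with a median of 0.15 in the authors' deposited table. All 8 body wall muscle markers were lower, with a median of -1.42, and of 15 measured sperm markers 11 were lower and 1 was higher, with a median of -2.89, in the authors' deposited table. The 6 muscle markers with recovered reads summed to 26548 and 27594 normalized counts in N2 and 9326 and 8982 in YY1449. Sperm markers summed to 2468 and 1886 normalized counts in N2 and 687 and 518 in YY1449. Of 7 intestine markers 2 were higher and 1 lower, and of 8 neuron markers none passed. None of 8 early embryo markers passed, and these summed to 10.6 and 13.5 normalized counts in N2 and 24.6 and 28.3 in YY1449, too few to read. Of 4 measured genes listed as male soma markers, gem-4 alone passed (deposited log2 1.20 ± 0.26). The others had means below 10, so this list says nothing about male tissue. The part of tissue makeup in the rises of the dosage compensation genes was not tested.

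The X chromosome, on which the complex acts, held a smaller share of genes called higher than the autosomes. Among genes with a mean of at least 10, 8.27% of 1668 X-linked genes were higher and 9.95% were lower in the authors' deposited table, against 14.9% and 12.5% of 10168 autosomal genes. The deposited median log2 changes were -0.06 on X and 0.00 on autosomes, a gap much smaller than the spread within either (X quartiles -0.46 and 0.28, autosomal quartiles -0.44 and 0.37). Among genes with a mean of at least 1000, 21.7% of 189 X-linked genes were higher and 29.1% were lower, against 33.2% and 13.1% of 2617 autosomal genes, with medians of -0.01 and 0.20. Each of the 5 autosomes had more genes higher than lower in that class, and X alone had more lower. No test was made of these shares, since neighbouring genes are not independent. Muscle markers lay on X in 3 of 8 cases and oocyte markers in 0 of 14, and the part of tissue makeup in the difference was not tested.

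**Figure D5:**
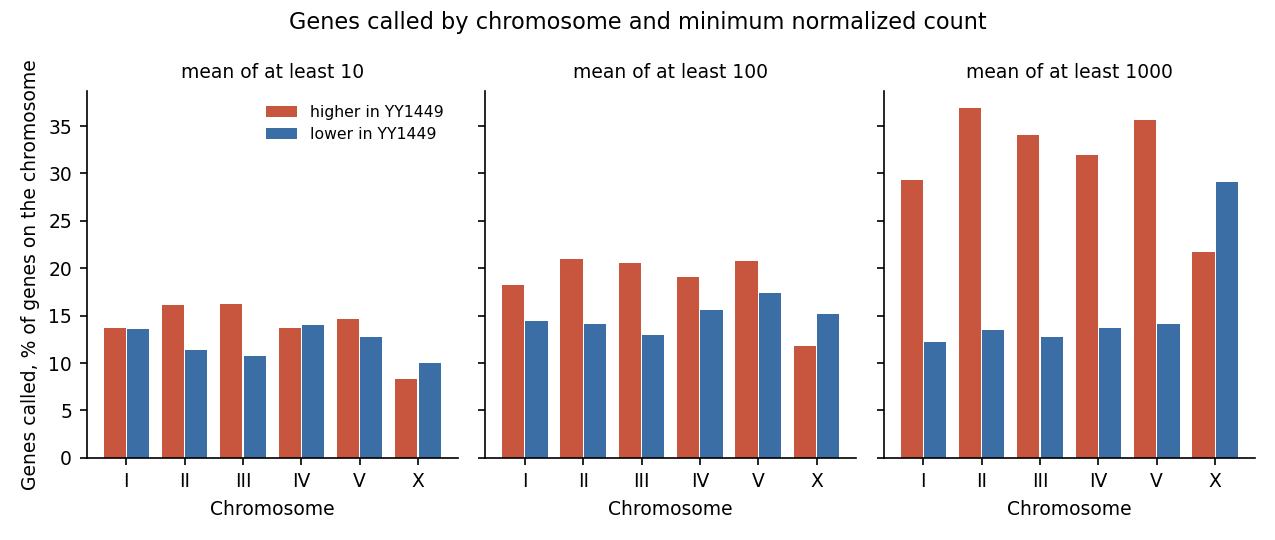
Share of genes called higher (red) and lower (blue) in YY1449 at a deposited adjusted p under 0.05, by chromosome, for genes with a mean normalized count of at least 10, 100 and 1000. Among genes with a mean of at least 1000, X has 21.7% higher and 29.1% lower, and each autosome has more genes higher than lower.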

How the data were processed

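Poly(A) RNA of 2 N2 and 2 YY1449 samples, called biological replicates in the series' design, was sequenced. Per the submitters' processing notes, the tools were STAR 2.7.0a, SAMtools 1.3.1, cutadapt 1.14 and Trim Galore 0.4.4, and the builds were named ce11 and WBcel235. For counting and for the statistical model, the software is not given in the sources used here. Strand is not marked by the kit. The authors deposited a comparison table that holds, per the file headers, a mean normalized count per feature (a signal scaled by size factors), a log2 fold change, its standard error, a test statistic (a score), a p-value and an adjusted p-value. Positive log2 was read as higher in YY1449 from the order of names in the comparison.

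The statistic equals the log2 fold change over its error, and the adjusted p-value is the Benjamini-Hochberg value over all 18638 features. Whole reads were recovered from the deposited means up to 6000 in 18224 of 18229 features. Where the deposited log2 fold change could be recomputed (12531 features), solutions were searched near the group means it implies and kept within a tolerance of 0.001 of it. The largest gap was 0.000371, and 12458 of these features had 1 solution in the range searched. In simulated data 198 of 198 means were recovered. The limit of 6000 was raised from a lower one after the data were seen, so that smc-4 and hcp-6 were included, and the number of members called was the same at both. Recovered reads in those features numbered 10298512 and 7380161 in N2 and 8704943 and 5464376 in YY1449, which limits the precision of low means.

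Features with means of 10 to 6000 (12022) were tested on these reads with voom weights in limma 3.58.1 (R 4.3.3), with adjusted p-values over all of them. In simulated reads 198 of 200 genes changed by log2 1 were recovered, with 3 false calls. Gene positions and exon lengths came from Ensembl release 115 (WBcel235), in which 17265 of 18468 genes were found, 920 of them by an older name. A lowess trend with fraction 0.3 was used for length. Intervals are 95% normal intervals from the deposited errors. Alternatives were a t distribution, another centring, a minimum mean of 10, genes alone, a threshold of 0.01, the length trend, the limma test and leaving out each library, the last 2 chosen after seeing the data. The members and lists were chosen with earlier results of these data known. All members, genes of lists of up to 10 genes and the 4 genes with the smallest adjusted p of longer or cell type lists could be named. Overlapping genes and pairs of members were chosen after their values were seen.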

Additional observations from a re-analysis of the deposited data

How the results depend on the processing

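Of the 10 genes, 7 were called higher with the deposited statistics, against 9.42% of all features. The count was 0 with a t distribution with 2 degrees of freedom (0% of all features). It was 2 with the length trend removed (12.4% of the genes fitted) and 8 with limma (18.5% of the features tested). At a threshold of 0.01 it was 5, after recentring 5, and with a minimum mean of 10 or over genes alone 7. The share of all features was not counted under those last settings, so these counts have no background beside them. With each library left out in the limma test it ran from 2, without the deeper N2 library, to 7, and the cause was not tested. No member was called lower under any of these settings. dpy-30 reversed to log2 0.20 with the length trend removed. Of the 4 other condensin subunits, 4 were called higher with the deposited statistics, 0 with the t distribution, 1 with the length trend removed and 1 without the deeper N2 library. No paired analysis was possible because the deposited columns carry no replicate number, and the recovered libraries cannot be matched to one. The 2 libraries per group and the small read counts of sdc-2, xol-1 and her-1 limit what could be detected, and 409 features with means above 6000 were not in the limma test.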
